A study of Mus musculus with 12 samples.

Results

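A set of 10 genes of Wnt signaling were followed in mouse fibroblasts given the Hedgehog ligand SHHN: the secreted modulators Sfrp1, Sfrp2, Frzb, Dkk2, Dkk3 and Wif1, the ligands Wnt5a and Wnt4, and the target genes Axin2 and Lef1. They were taken by symbol from a table of 24346 genes, and all 10 were found. Wnt proteins are secreted ligands that bind Frizzled receptors, and in the canonical branch they stabilise beta-catenin, which enters the nucleus and works there with TCF/LEF factors. Secreted Frizzled-related proteins (the Sfrp genes and Frzb) and Wif1 bind Wnt proteins outside the cell, and Dickkopf proteins such as Dkk2 act on the coreceptors Lrp5 and Lrp6. In lung and other organs, Wnt and Hedgehog signals pass between epithelium and mesenchyme during development.

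Gene expression had been measured by RNA sequencing in 12 libraries of 2 established fibroblast lines. NIH-3T3 came from NIH/Swiss mouse embryos and MLg from the lung of newborn ddY mice. The 4 groups were NIH-3T3 SHHN, NIH-3T3 control, MLg SHHN and MLg control, with 3 libraries each. SHHN libraries had received 1 µg/ml of recombinant SHHN, the amino-terminal part of Sonic hedgehog, and control libraries vehicle, both for 48 h in medium with 0.5% FBS. Before that, NIH-3T3 was grown in bovine calf serum and MLg in FBS. Line, strain, tissue of origin, age (embryo or newborn) and growth serum therefore cannot be told apart in any contrast between lines. Nothing in the labels says whether replicates were separate cultures, so p-values measure the spread between these libraries, which may be technical.

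Values are FPKM, fragments scaled by transcript length and by the number of mapped fragments, so levels can be compared between genes. The depth of the libraries is unknown, and FPKM totals of 470218 to 659862 do not measure it. Gli1, which Hedgehog signaling induces, had 139 to 151 FPKM in NIH-3T3 SHHN against 0.0840 to 0.180 FPKM in NIH-3T3 control, and 113 to 129 FPKM in MLg SHHN against 0.414 to 0.906 FPKM in MLg control. Fibroblast genes were present in both lines with 1 exception: 10 of 10 markers reached 0.5 FPKM in every NIH-3T3 library, while 9 of 10 did in MLg, where Thy1 averaged 0.0237 FPKM with SHHN and 0.0701 FPKM in control. Of 6 epithelial markers, Epcam, Krt18 and Cldn4 were listed at 0 in all 12 libraries, and Krt8 and Krt19 averaged below 0.1 FPKM in every group. The epithelial marker Cdh1 had 0.558, 0.317 and 0.270 FPKM in NIH-3T3 SHHN against 0.0155 to 0.0459 FPKM in NIH-3T3 control, so that the summed epithelial level was 0.270 to 0.704 FPKM in NIH-3T3 SHHN against 0.0155 to 0.0459 FPKM in NIH-3T3 control and at most 0.196 FPKM in MLg. The part of these markers in the results was not tested. Over all genes, NIH-3T3 control replicate 2 was least like its replicates, with Spearman correlations of 0.973 and 0.976 and the fewest genes above 0 (13401). Another library stood apart for 5 of the 6 members tested: in NIH-3T3 SHHN replicate 1, Sfrp1 was at 0.370 times the mean of replicates 2 and 3, Wnt5a at 0.471, Sfrp2 at 0.516, Dkk3 at 0.579 and Dkk2 at 0.656 times, while Lef1 was at 1.31 times. For the 5 lower genes, on the log2(FPKM + 0.5) scale the gaps ran from -1.42 to -0.59, while the median gap over all 12379 tested genes was -0.08 and 6.79% of genes lay at -0.5 or below. Fold changes of the members that involve NIH-3T3 SHHN are given with and without that library.

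Promoters of the member with the deepest fall and of the member that rose in both lines are shown for context, as the 250 bases before the annotated start on the plus strand of GRCm38.p6, credited to RefSeq. Sfrp2 lies at chr3:83766071-83766320 and Dkk2 at chr3:132085042-132085291. Capitals mark a TCF/LEF core (CTTTG) or a TATA box (TATAAA) on either strand.
Sfrp2: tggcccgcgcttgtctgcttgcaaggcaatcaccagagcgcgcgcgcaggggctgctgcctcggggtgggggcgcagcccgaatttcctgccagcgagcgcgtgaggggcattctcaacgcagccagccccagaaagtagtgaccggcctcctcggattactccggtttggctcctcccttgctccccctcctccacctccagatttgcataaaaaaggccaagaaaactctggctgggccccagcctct
Dkk2: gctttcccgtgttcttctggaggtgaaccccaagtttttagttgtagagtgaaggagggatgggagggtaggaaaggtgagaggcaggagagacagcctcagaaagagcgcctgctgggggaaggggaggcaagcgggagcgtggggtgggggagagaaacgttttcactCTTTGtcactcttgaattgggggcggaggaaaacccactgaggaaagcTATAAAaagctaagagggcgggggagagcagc
The Dkk2 window held a TCF/LEF core whose first base was 80 bases before the start and a TATA box 32 bases before it, and the Sfrp2 window held neither. A TCF/LEF core was found in 48.6% and a TATA box in 12.4% of 32851 promoter windows of that length. The GLI binding consensus GACCACCCA (0.225% of windows), its core CCACCCA (8.11%) and the longer TCF/LEF site CTTTGAT (3.21%) were in neither of the printed windows nor in those of Frzb, Wif1, Wnt4, Axin2 and the 4 starts of Lef1. A match or its absence in this window describes these letters and says nothing about binding. No window was available for Sfrp1, Dkk3 and Wnt5a, so these genes were not searched.

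Of the 10 genes, 6 passed the filter of 0.5 FPKM in at least 3 of the 12 libraries and were tested: Sfrp1, Sfrp2, Dkk2, Dkk3, Wnt5a and Lef1. Frzb, Wif1, Wnt4 and Axin2 stayed below 0.5 FPKM in every library. Differences were tested with limma on log2(FPKM + 0.5) over all 12379 genes that passed, two-sided, with Benjamini-Hochberg adjustment and a threshold of 0.05, and on this scale the change of a low gene is understated. In NIH-3T3, 2 members were higher with SHHN (Dkk2 and Wnt5a) and 1 was lower (Sfrp2), where 16.6% of all tested genes were called higher, 14.8% lower and 31.4% in either direction. In MLg, 1 member was higher (Dkk2) and 2 were lower (Sfrp1 and Dkk3), where 12.8% of all tested genes were called higher, 10.0% lower and 22.8% in either direction. These counts over so few genes only account for the members. How many of all tested genes had groups that did not overlap was not counted, so overlap is given below as a description. In cultures measured in bulk, as here, fewer cells that express a gene and less RNA per cell cannot be told apart.

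**Figure D1:**
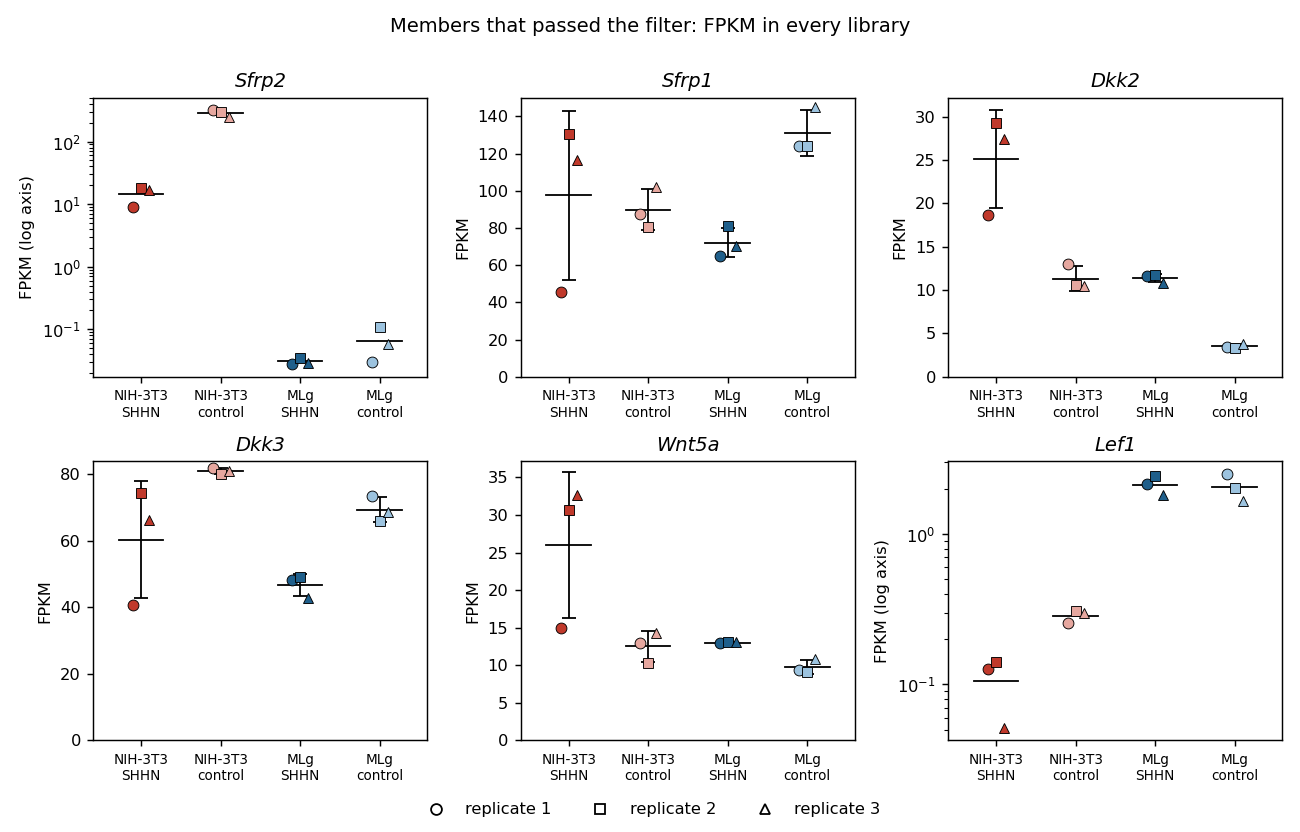
FPKM of the 6 tested genes in each library, by group, with the mean as a line and, on linear axes, SD bars (n = 3); Sfrp2 and Lef1 have log axes. NIH-3T3 SHHN replicate 1 (circle) lies below its replicates for Sfrp1, Sfrp2, Dkk2, Dkk3 and Wnt5a, and Sfrp2 is between 9.04 and 18.4 FPKM in NIH-3T3 SHHN, below all NIH-3T3 control libraries.

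Sfrp2, a secreted Frizzled-related protein, was the most abundant of the members in NIH-3T3 control and lost most of its level with SHHN. It had 9.04, 18.4 and 16.7 FPKM in NIH-3T3 SHHN, against 316, 298 and 243 FPKM in NIH-3T3 control. No library of one group came near the other, and the mean of the SHHN libraries was 0.0514 times that of the control libraries. The log2 fold change was -4.29 (SE 0.21, limma adjusted p = 7.81e-09), and -3.98 (SE 0.14) without NIH-3T3 SHHN replicate 1. In MLg the gene was close to absent, with 0.0278, 0.0349 and 0.0289 FPKM in SHHN and 0.0299, 0.107 and 0.0589 FPKM in control, and these ranges overlapped (log2 fold change -0.09, SE 0.21, limma adjusted p = 0.817). The SHHN effect differed between the lines by -4.20 (SE 0.30, limma adjusted p = 1.72e-06, NIH-3T3 minus MLg), where 5.95% of all tested genes were called lower in that contrast, 7.48% higher and 13.4% in either direction. It was the 1 member called there, and the difference was -3.89 without NIH-3T3 SHHN replicate 1. At the level of Sfrp2 in MLg a fall could hardly be seen on this scale, so that difference rests on its level in NIH-3T3. The gene spans 3:83766321-83774316 in GENCODE M21 (mm10), where an antisense gene, Gm26771, overlaps it, and whether the counting used strand was not given in the sources used here.

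Sfrp1, the family member with the highest level in MLg, was lower with SHHN in MLg, and its values in NIH-3T3 rested on 1 library. It had 65.2, 80.9 and 70.3 FPKM in MLg SHHN against 124, 124 and 145 FPKM in MLg control. The groups did not overlap, and the log2 fold change was -0.86 (SE 0.29, limma adjusted p = 0.0461). That call ended without any 1 of the 6 MLg libraries (adjusted p from 0.0683 to 0.135), when replicate 1 (0.0537) or 3 (0.0547) of NIH-3T3 control was dropped, and when low genes were kept (0.0934), while without NIH-3T3 SHHN replicate 1 the adjusted p was 2.74e-04. In NIH-3T3, Sfrp1 had 45.7, 131 and 116 FPKM with SHHN against 87.3, 80.3 and 102 FPKM in control. The first SHHN library was below all controls and the other 2 were above all of them, so that the log2 fold change was -0.01 (SE 0.29, limma adjusted p = 0.986) and turned to 0.46 (SE 0.14, adjusted p = 0.0293) without that library. The difference between the lines was 0.85 (SE 0.41, limma adjusted p = 0.194) with it and 1.32 (adjusted p = 7.77e-04) without it. Sfrp1 lies at 8:23411502-23449632.

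Dkk2, a Dickkopf protein that binds Lrp5 and Lrp6, was higher with SHHN in both lines. It had 18.6, 29.3 and 27.5 FPKM in NIH-3T3 SHHN against 13.0, 10.5 and 10.4 FPKM in NIH-3T3 control. In MLg it had 11.6, 11.7 and 10.8 FPKM with SHHN against 3.49, 3.32 and 3.79 FPKM in control. In both lines every SHHN library was above every control library, and MLg SHHN reached about the level of NIH-3T3 control, whose range it overlapped. The log2 fold change was 1.10 (SE 0.16, limma adjusted p = 1.19e-04) in NIH-3T3 and 1.56 (SE 0.16, limma adjusted p = 6.60e-06) in MLg, and in NIH-3T3 it was 1.30 without SHHN replicate 1. The effects were not shown to differ between the lines (-0.46, SE 0.22, limma adjusted p = 0.195, and -0.27 without that library, adjusted p = 0.366), and both calls held in all 22 alternatives of each contrast. Dkk2 lies at 3:132085292-132180304, and no other annotated gene overlaps it.

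Dkk3, a secreted Dickkopf relative that, unlike the others, is not an established Lrp ligand, was lower in every SHHN library than in any control library of its line. It had 48.1, 49.0 and 42.9 FPKM in MLg SHHN against 73.5, 65.9 and 68.7 FPKM in MLg control, which did not overlap (log2 fold change -0.57, SE 0.17, limma adjusted p = 0.0288). The call ended without any 1 of the 6 MLg libraries (adjusted p from 0.0550 to 0.111) and with no filter (0.0512), while the value stayed between -0.60 and -0.51. Without NIH-3T3 SHHN replicate 1 the limma adjusted p in MLg was 9.53e-04. In NIH-3T3 the gene had 40.7, 74.3 and 66.2 FPKM with SHHN against 81.8, 80.1 and 80.8 FPKM in control. All SHHN libraries were below all controls there, but the log2 fold change of -0.46 (SE 0.17) did not pass (limma adjusted p = 0.0549). It was -0.21 (adjusted p = 0.200) without SHHN replicate 1, and it passed with median-ratio scaling (0.0390), without SHHN replicate 2 (0.0152), without SHHN replicate 3 (0.0482) and without both NIH-3T3 libraries numbered 2 (0.0226). Dkk3 lies at 7:112116017-112159057.

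Frzb and Wif1, the other 2 inhibitors that bind Wnt proteins, were barely present. Frzb was listed at 0 in all 6 NIH-3T3 libraries, and had 0.103, 0.110 and 0.0243 FPKM in MLg SHHN and 0.0225, 0.0541 and 0.0521 FPKM in MLg control, which overlapped. Wif1 was above 0 in 3 of the 12 libraries, at 0.0350 FPKM in MLg SHHN replicate 2, 0.0405 FPKM in NIH-3T3 control replicate 1 and 0.0316 FPKM in MLg control replicate 3.

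Summed over the 6 secreted modulators, NIH-3T3 SHHN libraries had 114, 253 and 227 FPKM against 498, 469 and 436 FPKM in NIH-3T3 control, and MLg SHHN libraries had 125, 142 and 124 FPKM against 201, 193 and 218 FPKM in MLg control. The SHHN libraries were below the control libraries in both lines. In NIH-3T3 the means of Sfrp2 (14.7 against 286 FPKM) and Dkk3 (60.4 against 80.9 FPKM) were lower with SHHN than in control. Those of Sfrp1 (97.6 against 89.9 FPKM) and Dkk2 (25.1 against 11.3 FPKM) were higher, so the lower sum there rested mostly on Sfrp2. The makeup differed as well. Sfrp2 held 7.51% ± 0.359 of the sum in NIH-3T3 SHHN and 60.9% ± 4.52 in NIH-3T3 control (SD, n = 3 each), while it held at most 0.0554% in any MLg library. Sfrp1 held 47.7% ± 6.60 in NIH-3T3 SHHN and 19.3% ± 3.51 in NIH-3T3 control, so that it took first place there with SHHN, as it had in MLg SHHN (55.3% ± 2.74) and MLg control (64.2% ± 2.47). Dkk2 held 8.77% ± 0.525 in MLg SHHN and 1.73% ± 0.0133 in MLg control. These shares are descriptions, without a test.

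**Figure D2:**
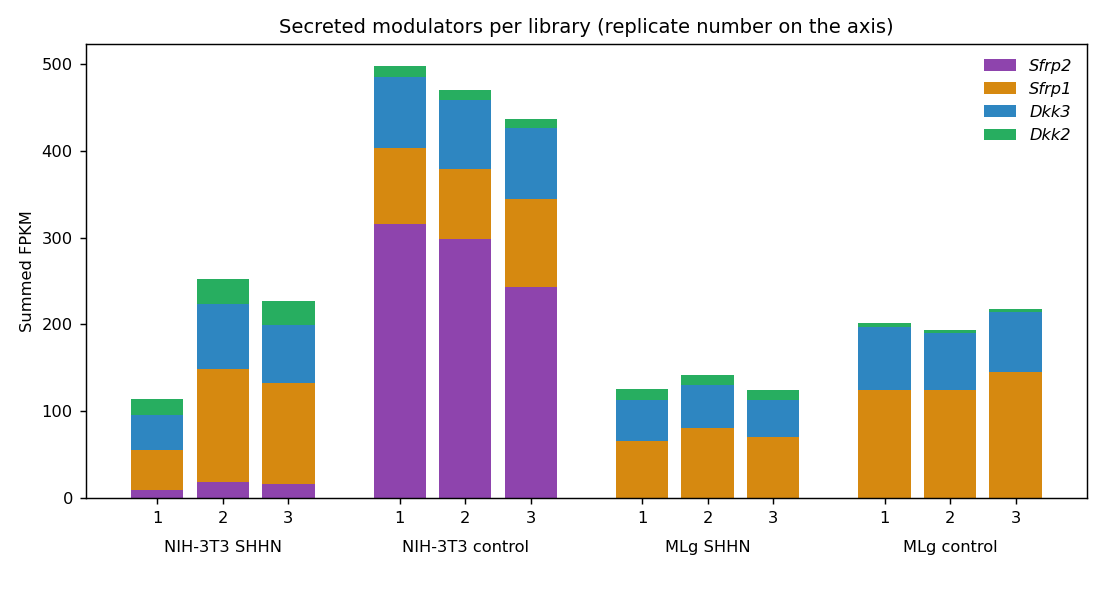
FPKM of Sfrp2, Sfrp1, Dkk3 and Dkk2 stacked for each library, with the replicate number under each bar; Frzb and Wif1 are too low to be seen. The NIH-3T3 control bars, at 436 to 498 FPKM, are the highest and consist mostly of Sfrp2, which is all but missing in MLg.

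Wnt5a, a ligand best known from branches of Wnt signaling that do not use beta-catenin, was higher with SHHN in NIH-3T3. It had 14.9, 30.7 and 32.6 FPKM in NIH-3T3 SHHN against 12.9, 10.3 and 14.3 FPKM in NIH-3T3 control. The groups did not overlap, though SHHN replicate 1 was close to the highest control. The log2 fold change was 0.96 (SE 0.23, limma adjusted p = 0.00591), it was 1.31 (SE 0.14) without SHHN replicate 1, and the call ended with 6 libraries per fit (0.0752) and without both NIH-3T3 libraries numbered 2 (0.0732). In MLg it had 12.9, 13.1 and 13.0 FPKM with SHHN against 9.37, 9.11 and 10.8 FPKM in control, groups that also did not overlap. There the log2 fold change of 0.40 (SE 0.23) did not pass (limma adjusted p = 0.254), but did with the 6 MLg libraries alone in the fit (0.0237) and without NIH-3T3 SHHN replicate 1 (0.0382). A difference between the lines was not shown (0.56, SE 0.33, limma adjusted p = 0.288), except without NIH-3T3 SHHN replicate 1 (0.91, adjusted p = 0.00829). Wnt5a lies at 14:28504750-28527448, overlapped by the antisense gene Gm2670.

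Within NIH-3T3 SHHN, the summed level of endothelial markers was lowest in replicate 1, as were Sfrp1, Sfrp2, Dkk2, Dkk3 and Wnt5a. The summed level of 6 endothelial markers was 6.73, 25.3 and 21.7 FPKM in NIH-3T3 SHHN against 5.75 to 7.94 FPKM in NIH-3T3 control, and 6.29 to 6.99 FPKM in MLg SHHN against 0.233 to 0.447 FPKM in MLg control. Cdh5 and Tek made up most of the sum in NIH-3T3 SHHN and MLg SHHN and Tek in NIH-3T3 control, while Vwf averaged most in MLg control (0.172 FPKM). Emcn was listed at 0 in all libraries, and Kdr and Pecam1 averaged below 0.1 FPKM in every group. The summed level of 6 smooth muscle markers was 238, 124 and 129 FPKM in NIH-3T3 SHHN against 185 to 229 FPKM in NIH-3T3 control, and 394 to 429 FPKM in MLg SHHN against 397 to 516 FPKM in MLg control. SHHN replicates 2 and 3 of NIH-3T3 were thus below the controls, and SHHN replicate 1 above them. The part of endothelial and smooth muscle markers in the results was not tested.

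Wnt4, a ligand of kidney and gonad development, was at the edge of what the table holds. It had 0.0293, 0.0777 and 0.0134 FPKM in NIH-3T3 SHHN against 0.160, 0.0991 and 0.115 FPKM in NIH-3T3 control. These did not overlap, and when all 17280 genes above 0 in any library were tested, the log2 fold change was -0.21 (SE 0.05, limma adjusted p = 0.0129), on a scale where the pseudocount exceeds the values. In MLg it was at most 0.0150 FPKM with SHHN and at most 0.0262 FPKM in control, with 1 library at 0 in each group.

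Both target genes were higher in MLg than in NIH-3T3. Axin2, a scaffold of beta-catenin breakdown that beta-catenin itself induces, had 0.332, 0.243 and 0.362 FPKM in MLg SHHN and 0.281, 0.360 and 0.368 FPKM in MLg control. It had 0.0634, 0.0632 and 0.0750 FPKM in NIH-3T3 SHHN against 0.0496, 0.0135 and 0.0132 FPKM in NIH-3T3 control. All NIH-3T3 libraries were below all MLg libraries, and within NIH-3T3 the groups did not overlap, but without a filter the SHHN effect did not pass (0.11, SE 0.07, limma adjusted p = 0.280). In that fit without a filter, Axin2 differed by -0.67 between NIH-3T3 control and MLg control and by -0.52 between NIH-3T3 SHHN and MLg SHHN (limma adjusted p = 1.18e-05 and 1.03e-04). Lef1, a transcription factor that carries beta-catenin to its targets, had 2.15, 2.44 and 1.81 FPKM in MLg SHHN and 2.50, 2.01 and 1.66 FPKM in MLg control, which overlapped (log2 fold change 0.05, SE 0.16, limma adjusted p = 0.872). In NIH-3T3 it had 0.126, 0.141 and 0.0515 FPKM with SHHN against 0.255, 0.306 and 0.300 FPKM in control. All SHHN values were lower, but the change of -0.38 (SE 0.16) did not pass (limma adjusted p = 0.0831, and -0.40 with 0.115 without SHHN replicate 1), and it passed with a pseudocount of 0.1 (-0.93, adjusted p = 0.0110) and with 6 libraries per fit (adjusted p = 0.0195). Antisense genes overlap both Axin2 (11:108920349-108950783) and Lef1 (3:131110471-131224356), and Gm42449 overlaps Lef1 on the same strand, so that its reads could be counted with those of Lef1 even with strand used.

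**Figure D3:**
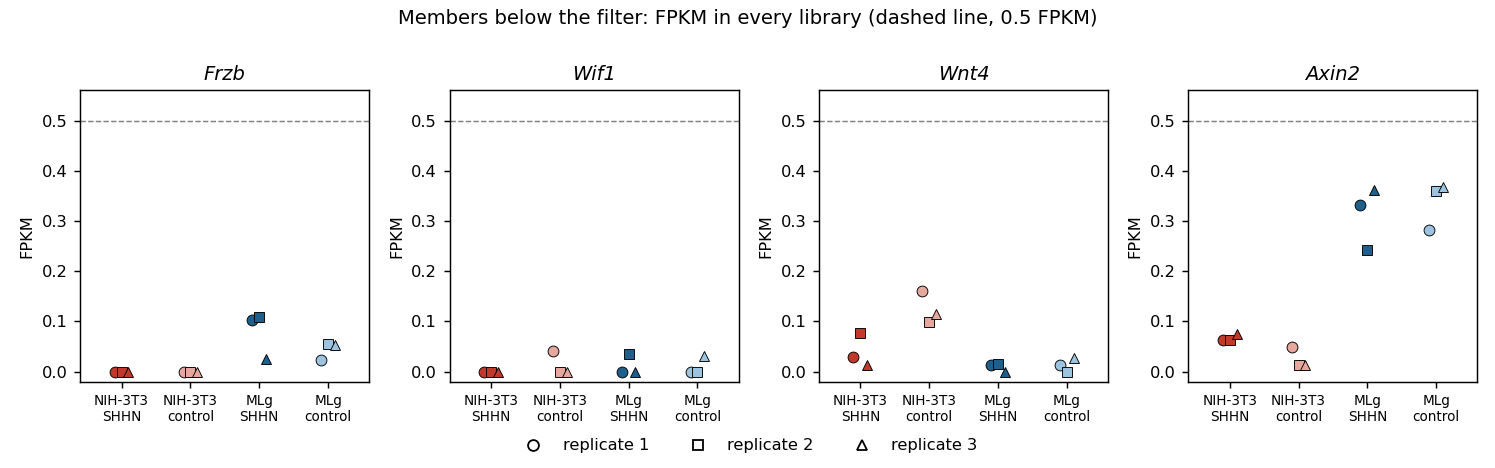
FPKM of the 4 genes below the filter in each library, on linear axes, with the filter level of 0.5 FPKM as a dashed line. Axin2 is at 0.243 to 0.368 FPKM in MLg and at most 0.0750 FPKM in NIH-3T3, and Frzb is listed at 0 in NIH-3T3.

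**Figure D4:**
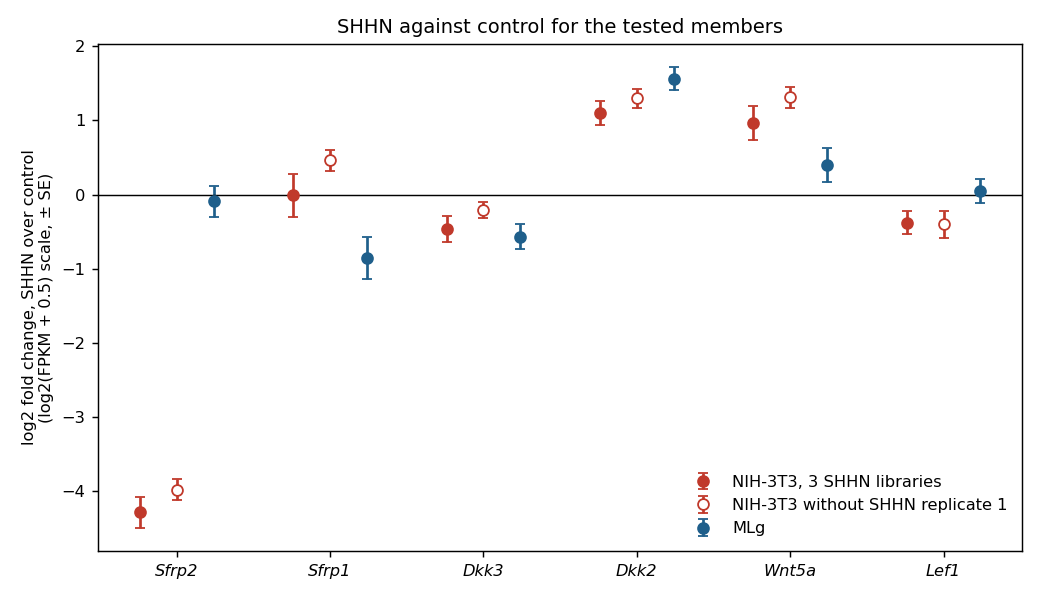
Log2 fold change of SHHN over control (± SE) for the 6 tested genes in NIH-3T3 with all libraries (filled red), in NIH-3T3 without SHHN replicate 1 (open red) and in MLg (blue). Dkk2 is above 0 in each, Sfrp2 is at -4.29 in NIH-3T3 with all libraries, and Sfrp1 in NIH-3T3 goes to 0.46 once replicate 1 is left out.

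Some members differed between the lines. With vehicle, NIH-3T3 exceeded MLg in Sfrp2 (log2 difference 8.98, SE 0.21, limma adjusted p = 8.30e-13) and Dkk2 (1.55, SE 0.16, adjusted p = 2.25e-06) and was below it in Lef1 (-1.69, SE 0.16, adjusted p = 8.75e-07), in a contrast that called 24.4% of all tested genes higher, 25.7% lower and 50.1% in either direction. With SHHN, the same 3 genes differed in the same directions (4.78, 1.08 and -2.11, and 5.08, 1.28 and -2.14 without NIH-3T3 SHHN replicate 1) and Wnt5a was higher in NIH-3T3 as well (0.90, SE 0.23, limma adjusted p = 0.00586, and 1.25 without that replicate), where 22.1% of genes were called higher, 24.8% lower and 46.8% in either direction. Sfrp2 passed the filter only through NIH-3T3 and Lef1 only through MLg, so for these a difference between lines follows in part from the filter. Sfrp1 did not pass in either contrast (-0.54 and 0.30, adjusted p = 0.133 and 0.416), and it passed at -0.54 with vehicle when the 6 control libraries were fitted alone (0.0128) or NIH-3T3 SHHN replicate 1 was left out (0.00322). Without that library, Sfrp1 (0.78, adjusted p = 7.69e-04) and Dkk3 (0.58, adjusted p = 9.65e-04) were also higher in NIH-3T3 SHHN than in MLg SHHN, and Wnt5a with vehicle passed (0.34, adjusted p = 0.0432).

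In order of mean level, Sfrp2 fell into separate ranges for NIH-3T3 control, NIH-3T3 SHHN and MLg, whose 2 groups overlapped. For Dkk2 the order was NIH-3T3 SHHN, MLg SHHN, NIH-3T3 control and MLg control, and for Wnt5a it was the same, but for Wnt5a only the first step was free of overlap, while for Dkk2 only the middle step overlapped. For Dkk3 the order was NIH-3T3 control, MLg control, NIH-3T3 SHHN and MLg SHHN, with overlap below the second. For Sfrp1 every neighbouring pair in the order MLg control, NIH-3T3 SHHN, NIH-3T3 control and MLg SHHN overlapped.

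Genes with the most similar levels over the 12 libraries were looked up by Pearson correlation of log2(FPKM + 0.5), as a description in which line and treatment are shared by all points. Nearest to Dkk2 were the protease Adamts15 (r = 0.978) and Dact1, a gene known to bind Dishevelled (r = 0.977). Nearest to Sfrp2 were Vtn (0.996), which codes for vitronectin, and Rgs4 (0.995), to Lef1 the kinase Mylk (0.992) and Lbp (0.990), and to Dkk3 Cpt1a (0.963), which imports fatty acids into mitochondria, and the phosphatase Ptpn13 (0.955). Wnt5a was followed most closely by Lgi4 (0.953) and Pofut1 (0.943), and Sfrp1 by Ccpg1 (0.913) and Olfml2b (0.904).

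The rest of the pathway was described from 9 lists with 124 distinct genes, of which 85 passed the filter and 79 of these were no members. Of these 79, 27 (34.2%) were higher and 7 (8.86%) lower with SHHN in NIH-3T3, where 16.6% and 14.8% of all tested genes were (median log2 fold change 0.205, against -0.0123 over all tested genes), and 11 (13.9%) were higher and 11 (13.9%) lower in MLg, where 12.8% and 10.0% of all tested genes were (median -0.01, against -0.0026 over all). The shares in MLg lie near those over all genes, and the lists were not tested against the other genes. Members and lists were chosen with earlier results of these data known, so the shares in NIH-3T3 are no test of the pathway. The 27 also include Wnt2 and Sfrp5, which passed the filter through SHHN libraries, where they are high. The 7 include Tcf7, which passed only through control libraries. Counts given per list below include the members in it, come from 4 to 17 tested genes a list, and are to be read against the same shares of all tested genes. In NIH-3T3, leaving out SHHN replicate 1 ended the calls of Gsk3b (0.0694) and Scrib (0.155). It changed no other call there among the non-members that the naming rule took.

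Among the 19 Wnt ligands, 6 passed the filter and 6 were listed at 0 in all 12 libraries. Of the 6 tested, 4 were higher with SHHN in NIH-3T3 (median 0.78) and 1 in MLg (median 0.20), and none was lower in either line. Wnt9a rose in both lines, with 17.4 ± 0.383 FPKM in NIH-3T3 SHHN and 11.4 ± 1.46 FPKM in NIH-3T3 control, and 9.23 ± 1.01 FPKM in MLg SHHN and 4.29 ± 0.385 FPKM in MLg control (SD, n = 3; log2 fold changes 0.59 and 1.02). Wnt2, a ligand of lung mesenchyme, had 1.97 ± 0.583 FPKM in NIH-3T3 SHHN and 0.370 ± 0.167 FPKM in NIH-3T3 control (1.49, SE 0.19) and was listed at 0 in every MLg library. It passed the filter through NIH-3T3 SHHN, where it is high, so this difference follows in part from the filter. Wnt6 rose by 1.38 (SE 0.26) in NIH-3T3, or by 1.72 without SHHN replicate 1, and its 0.67 in MLg missed the threshold at a limma adjusted p of 0.0773, against 0.0360 once replicate numbers were blocked. Of 5 tested secretion genes, 1 was higher in NIH-3T3 and 2 were lower in MLg. Porcn, the enzyme that adds the lipid to Wnt proteins, rose by 0.64 in NIH-3T3 and fell by 0.50 in MLg (limma adjusted p = 0.00255 and 0.0149), and Wls, the carrier of Wnt proteins, fell by 0.66 in MLg. The Porcn call in MLg ended without MLg SHHN replicate 1 (0.0736) or 3 (0.0544) or MLg control replicate 2 (0.0518).

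Of the 15 secreted inhibitors listed, 6 were tested, with 3 higher and 1 lower in NIH-3T3 and 3 higher and 2 lower in MLg. The 2 that are no members, Igfbp4 and Sfrp5, were called higher in both lines, Sfrp5 in part through the filter. Igfbp4, an IGF-binding protein that also binds Lrp6 and Frizzled, had 148 ± 40.5 FPKM in NIH-3T3 SHHN and 34.1 ± 6.58 FPKM in NIH-3T3 control, and 1584 ± 95.7 FPKM in MLg SHHN and 453 ± 68.8 FPKM in MLg control (log2 fold changes 2.08 and 1.82). Sfrp5 passed that filter only through SHHN libraries, where it is high, so its calls are no independent count, and its log2 fold change ran from 0.85 to 3.13 in NIH-3T3 and from 0.96 to 3.25 in MLg over the alternatives, with the extremes at pseudocounts of 1 and 0.1. It had means of 0.837 FPKM in NIH-3T3 SHHN and 0.981 FPKM in MLg SHHN. In NIH-3T3 control it was listed at 0, and it averaged 0.0153 FPKM in MLg control.

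Of 15 tested receptors and coreceptors, 7 were higher and 1 lower in NIH-3T3 (median 0.51), and 2 were higher and 3 lower in MLg (median -0.09). Lrp5, the coreceptor that Dkk2 binds, had 74.7 ± 7.10 FPKM in NIH-3T3 SHHN and 28.4 ± 3.81 FPKM in NIH-3T3 control (1.38, SE 0.12), while its 0.26 in MLg did not pass. The receptor Fzd4 rose in MLg to 19.4 ± 0.358 FPKM, against 4.36 ± 1.66 FPKM in MLg control (2.09, SE 0.27), and was at -0.07 in NIH-3T3. The 3 genes called lower in MLg were the Frizzled receptors Fzd5, Fzd7 and Fzd8 (-0.55, -0.70 and -0.67). All of these were called higher in NIH-3T3 (0.52, 1.05 and 0.64). Their limma adjusted p ran from 0.00519 to 0.0332 in MLg and from 3.62e-04 to 0.0337 in NIH-3T3. These Frizzled genes were not followed in the alternatives. Ror2, a receptor of Wnt5a, rose by 0.84 (SE 0.13) in NIH-3T3 and by 0.39 in MLg (limma adjusted p = 0.0463, and 0.0680 with the replicate block), a call that also ended without any 1 of the MLg libraries. Ptk7, a Wnt coreceptor of planar polarity, fell in NIH-3T3 by 0.91 on the log2 scale. Of the 4 tested genes for R-spondins and receptor turnover, 2 were higher in NIH-3T3, and 1 was higher and 2 were lower in MLg. Lgr4, a receptor of R-spondins, rose to 61.2 ± 27.5 FPKM in NIH-3T3 SHHN, against 21.4 ± 4.52 FPKM in control, and to 48.8 ± 5.20 FPKM in MLg SHHN, against 6.69 ± 1.10 FPKM in control (1.39 and 2.78, and 1.84 in NIH-3T3 without SHHN replicate 1). Rspo2 (-0.90, SE 0.18) and Rnf43 (-0.60, SE 0.16), an E3 ligase that removes Frizzled receptors, fell in MLg. The Rnf43 call ended with a pseudocount of 0.1 (0.0784) and without MLg SHHN replicate 3 (0.0676) or MLg control replicate 1 (0.0533). Rnf43 passed the filter only through MLg, and averaged 0.144 FPKM in NIH-3T3 SHHN and 0.0281 FPKM in NIH-3T3 control. Its partner Znrf3 passed narrowly in NIH-3T3 (0.50, adjusted p = 0.0486) and missed under most alternatives.

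Inside the cell, of 17 tested genes of the cytoplasmic relay, 3 were higher in NIH-3T3 and 1 in MLg, and none was lower. Ctnnb1, which codes for beta-catenin, had 272 ± 17.3 FPKM in MLg SHHN and 188 ± 5.61 FPKM in MLg control (0.53, SE 0.10, limma adjusted p = 0.00113), and its 0.22 in NIH-3T3 passed only with quantile normalization. Ctnnbip1, a beta-catenin inhibitor (0.71, SE 0.11), and Dvl2, a Dishevelled protein (0.51, SE 0.12), rose in NIH-3T3, and Gsk3b (0.58, adjusted p = 0.0449) passed there but missed without any 1 of several libraries, such as NIH-3T3 control replicate 2 (0.27, adjusted p = 0.110). Of 12 nuclear factors, 4 were higher and 3 lower in NIH-3T3, and 1 was higher and 1 lower in MLg. Groucho-type corepressors went apart in NIH-3T3, where Tle3 rose by 1.87 (SE 0.11) and Tle1 by 0.85 (SE 0.14) and Tle2 fell by 1.14 on the log2 scale. Tle1 in MLg (0.40) had a limma adjusted p of 0.0595, against 0.0344 once replicate numbers were blocked. Tcf7l1, a TCF factor known as a repressor, had 141 ± 9.69 FPKM in NIH-3T3 SHHN and 88.5 ± 8.80 FPKM in control (0.67, SE 0.11).

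Of 12 tested beta-catenin targets, 3 were higher and 2 lower in NIH-3T3, and 1 was higher and 4 were lower in MLg, with medians of -0.04 and -0.06. Cd44, the hyaluronan receptor, rose in both lines (1.10 and 2.28). Ccnd1, which codes for cyclin D1 and is also driven by other signals, had 72.8 ± 16.7 FPKM in NIH-3T3 SHHN and 23.5 ± 2.64 FPKM in control (1.59, SE 0.15), and its 0.26 in MLg did not pass. Apcdd1, a membrane inhibitor of Wnt signals, fell in NIH-3T3 (-0.63, SE 0.13) and MLg (-1.04, SE 0.13). Tcf7, a TCF factor, passed the filter only through control libraries, where it is high, so its lower values with SHHN follow in part from the filter. It averaged 0.0889 FPKM in NIH-3T3 SHHN and 0.722 FPKM in NIH-3T3 control (-1.05, SE 0.18, and -2.14 and -0.66 with pseudocounts of 0.1 and 1), and 0.178 FPKM in MLg SHHN and 0.561 FPKM in MLg control (-0.67, adjusted p = 0.0149, and 0.0755 without MLg SHHN replicate 1). Of 12 tested planar polarity genes, 3 were higher and 2 lower in NIH-3T3, and 2 were higher and 1 lower in MLg. Prickle1 had 49.3 ± 6.60 FPKM in NIH-3T3 SHHN and 20.9 ± 1.58 FPKM in control and rose in MLg to 2.67 ± 0.116 FPKM, against 0.907 ± 0.0677 FPKM in control (1.21 and 1.17), and Daam1, a formin, fell in both (-0.81 and -0.93). Vangl2 rose in NIH-3T3 (0.88, SE 0.14). Scrib passed narrowly in both lines (0.41 and 0.46) and lost each call under many alternatives.

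**Figure D5:**
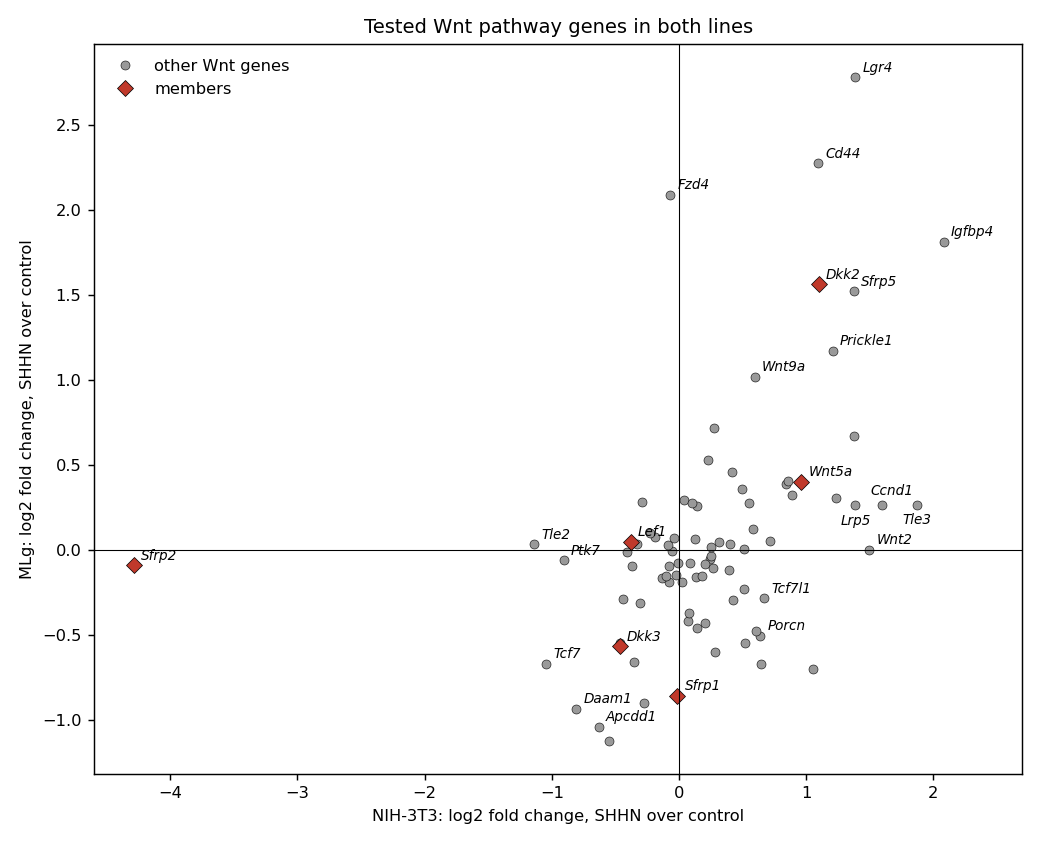
Log2 fold change of SHHN over control in NIH-3T3 (x axis) and MLg (y axis) for the 85 tested Wnt pathway genes, members as red diamonds. Dkk2, Igfbp4, Lgr4, Cd44 and Prickle1 lie above 1 in both lines, as does Sfrp5, which passed the filter only through SHHN libraries (with a pseudocount of 1, Sfrp5 is at 0.85 in NIH-3T3 and 0.96 in MLg, and Prickle1 at 0.94 in MLg), and Sfrp2 lies far to the left at -4.29 and near 0 in MLg.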

How the data were processed

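Values were FPKM, computed and deposited by the authors, with a single value for each gene in each library. The submitters' processing notes name bcl2fastq, TopHat2 2.0.12, Cufflinks 2.2.1 and mm10 without their roles, and the annotation and any scaling between libraries were not given in the sources used here. One entry without values was left out. Column names give line, treatment and number, which tied each to its sample. No read counts were used, so depth, counting intervals and detection floors are unknown.

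The fit used limma 3.58.1 (R 4.3.3) on log2(FPKM + 0.5) for genes reaching 0.5 FPKM in 3 or more libraries. It had 4 group means in 1 model and a variance trend, and was tested on simulated data. The rule for named genes took all 10 members, up to 4 called non-members per list by smallest adjusted p over both SHHN contrasts, Gli1, and the 2 most correlated genes per tested member. Frizzled genes named beside Fzd4 fell outside this rule and were not recomputed in the alternatives given below. The members and lists were chosen with earlier results of these data known. MLg SHHN and control libraries of equal number correlated after removal of group means (r across genes 0.132, 0.157 and 0.241). In NIH-3T3 these values were -0.001, -0.101 and 0.027. What the numbers mark was not given, so the reported fit paired no libraries, and its p-values in MLg leave out any such pairing. Only the replicate block, named next, took equal numbers within each line together for the SHHN contrasts. Each result was recomputed with pseudocounts of 0.1 and 1, with low genes filtered at 1 FPKM or kept, after quantile normalization or median-ratio scaling, and with the 6 libraries compared fitted alone, the replicate block, robust variances, each library left out, or both NIH-3T3 libraries numbered 2 left out. Errors of FPKM are SD (n = 3) and errors of log2 fold changes are SE.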

Additional observations from a re-analysis of the deposited data

Results flagged for a closer look

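The SHHN effect differed between the lines by the test of the difference itself (limma, NIH-3T3 minus MLg, adjusted over all tested genes) for Sfrp2 among the members, at -4.20 (adjusted p = 1.72e-06). Sfrp2 had 14.7 ± 4.96 FPKM in NIH-3T3 SHHN and 286 ± 38.1 FPKM in NIH-3T3 control, and below 0.11 FPKM in every MLg library. It passed the filter only through NIH-3T3, and at its level in MLg a fall could hardly be seen on this scale. The difference therefore rests on its level in NIH-3T3 and does not show whether MLg would respond otherwise.

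Among the other named Wnt genes, the effect was higher in NIH-3T3 than in MLg for Tle3 (1.60, adjusted p = 2.75e-05), Wnt2 (1.49, adjusted p = 0.00269, listed at 0 in MLg and past the filter only through NIH-3T3, where it is high with SHHN), Ccnd1 (1.33, adjusted p = 0.00119), Porcn (1.14, adjusted p = 0.00146), Lrp5 (1.12, adjusted p = 9.05e-04), Tcf7l1 (0.95, adjusted p = 0.00162), Rnf43 (0.88, adjusted p = 0.0191) and Ctnnbip1 (0.66, adjusted p = 0.0143). It was lower in NIH-3T3 than in MLg for Fzd4 (-2.16, adjusted p = 0.00191), Lgr4 (-1.40, adjusted p = 0.0400), Cd44 (-1.18, adjusted p = 0.00599), Tle2 (-1.17, adjusted p = 7.71e-04) and Ptk7 (-0.85, adjusted p = 0.00488). Of all 79 tested non-members, 13 were called higher and 5 lower, where 7.48% and 5.95% of all tested genes were. Outside the naming rule, Fzd7 (1.75), Fzd8 (1.31), Fzd6 (1.08), Fzd5 (1.065) and Fzd2 (0.74) were also higher. Their limma adjusted p ran from 4.20e-04 to 0.0365.

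The Lgr4 difference missed the threshold with no filter (0.0816) and without NIH-3T3 control replicate 3 (0.0988), MLg SHHN replicates 1 (0.0593), 2 (0.0782) or 3 (0.0945) or MLg control replicates 1 (0.0966) or 2 (0.0697). The Rnf43 difference missed it without NIH-3T3 SHHN replicate 2 (0.0529), MLg SHHN replicate 3 (0.0567) or both NIH-3T3 libraries numbered 2 (0.0650). Rnf43 passed the filter only through MLg, where it is high, so its difference between the lines follows in part from the filter.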

How the results depend on the processing

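Of 654 values for the 6 tested members over 5 contrasts and all alternatives, 620 kept their side of the threshold. Another 18 lost a call and 15 gained one. The remaining 1 was Sfrp1 in NIH-3T3, which turned round and gained a call. It ranged from -0.29 to 0.46 when each library was left out in turn. Values that passed in neither fit stayed among the 620 even where their sign changed. Dkk3 in the difference between lines (-0.08 to 0.36) and Lef1 in MLg (-0.07 to 0.17) changed sign in this way. The calls of Sfrp2 in NIH-3T3 (-4.47 to -3.98) and of Dkk2 in both lines held throughout. The number of members called lower in NIH-3T3 was 2 with a pseudocount of 0.1, with no filter, with median-ratio scaling, with 6 libraries per fit and without both NIH-3T3 libraries numbered 2, against 1 in the reported fit, and the number called higher was 1 instead of 2 with 6 libraries per fit and without both libraries numbered 2. In MLg, 0 members were called lower with no filter (limma, with 2 at an unadjusted p under 0.05) and 2 were higher with 6 libraries per fit. NIH-3T3 control against MLg control had 2 members lower with no filter and with 6 libraries per fit, and NIH-3T3 SHHN against MLg SHHN had 3 lower with no filter. Counts with no filter also take in Frzb, Wif1, Wnt4 and Axin2, which the reported fit did not test. The calls added that way were Wnt4 lower with SHHN in NIH-3T3, Axin2 lower in NIH-3T3 in both line contrasts, and Frzb lower there with SHHN. Wnt4 was also called higher in NIH-3T3 control than in MLg control (0.28, limma adjusted p = 0.0012). Leaving out each library in turn, members called lower ranged from 1 to 2 in NIH-3T3 and from 0 to 2 in MLg, members called higher from 2 to 3 in NIH-3T3 and from 1 to 2 in MLg, and the difference between lines had 0 to 2 members higher, with 2 only without NIH-3T3 SHHN replicate 1 (in the reported limma fit 0 were also higher at an unadjusted p under 0.05). The line contrasts then had 1 to 2 members lower and 2 to 3 higher with vehicle, and 3 to 5 higher with SHHN. Of all 12379 tested genes, 1655 to 2148 were then higher and 1390 to 2127 lower in NIH-3T3, and 1193 to 1808 higher in MLg. With vehicle, the line contrast called 2593 to 3247 of them higher and 2731 to 3180 lower. With SHHN, it called 2329 to 2936 higher and 2478 to 3384 lower. Over all genes, 1182 were called lower in NIH-3T3 with 6 libraries per fit, against 1826. With 1 library left out, 815 to 1454 genes were lower in MLg (815 without MLg SHHN replicate 3), and the difference between lines called 608 to 1101 higher and 485 to 1244 lower, the lowest values both without MLg SHHN replicate 3 and 1244 without NIH-3T3 control replicate 2. With the replicate block, 1598 genes were higher and 1232 lower in MLg and 2123 and 1869 in NIH-3T3, and no call of a member changed. Causes of these shifts were not tested. Depth is unknown, so values near 0 for Frzb, Wif1, Wnt4 and Axin2, and for Sfrp2 in MLg, cannot be given a detection limit.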
